A study of Mus musculus with 8 samples.

Results

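Prg2, Epx, Ccr3, Il5ra, Siglecf and Alox15 are genes that mark eosinophils, and their levels were followed in CD11b+Gr-1+ myeloid cells of mice. All probe sets annotated to only 1 gene, that gene being among these, were taken, which gave 6 probe sets, 1 for each of the 6 genes, of 45101 on the array, where 18194 genes have such a probe set. In Entrez Gene the genes have the identifiers 19074, 13861, 12771, 16192, 233186 and 11687, in that order, and they lie on mouse chromosomes 2, 11, 9, 6, 7 and 11 in GRCm38.p6. Of the 6 probe sets, 3 (Prg2, Ccr3 and Siglecf) reached log2 5, taken here as background, on at least 2 arrays and were tested. Epx, Il5ra and Alox15 lay under it on all 8 arrays. Of all 34958 probe sets annotated to 1 gene, 13505 were tested.

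Eosinophils are granulocytes that form in the bone marrow under interleukin 5 and enter tissues along eotaxins, chemokines read by the receptor Ccr3. Their granules hold cationic proteins, chiefly major basic protein, made from Prg2, and eosinophil peroxidase, made from Epx. The intestinal wall holds many of them in health, and colon tumors can hold them too. Not all of these genes mark eosinophils alone. Ccr3 is also carried by basophils and mast cells, Siglecf by alveolar macrophages, and Alox15 by resident peritoneal macrophages.

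The 8 single-colour Affymetrix arrays covered 4 groups of C57BL/6J mice, which all carried an HDC-EGFP reporter. Bone marrow cells expressing HDC came from 3 HDC-EGFP mice (here wild-type marrow) and 3 HDC-EGFP/HDC-KO mice (HDC-KO marrow), aged 3 to 4 months. HDC is histidine decarboxylase, which makes histamine. Colon tumor cells came from 5 mice of each of these genotypes, aged 7 months, given azoxymethane (AOM), a carcinogen, once and dextran sodium sulfate (DSS), which injures the colon, for 10 days, with tumors collected 22 to 24 weeks later. The labels name no EGFP gate for the tumor cells, whose RNA was pooled, and leave pooling open for marrow. Each group was hybridised to 2 technical arrays, so every adjusted p below reads a difference between pools by how far technical arrays of a pool differ, and no spread between mice enters it. Tissue also cannot be told apart from age, carcinogen treatment and the EGFP gate.

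Across the 13505 tested probe sets paired arrays had correlations of 0.995 to 0.998. Itgam, which encodes CD11b, lay at log2 11.25 to 12.38 in the 4 pools, and the 8 neutrophil markers measured lay at or above log2 5 in every pool. Hdc was lower in HDC-KO than in wild-type marrow, at a log2 difference of -3.35 ± 0.06 (SE), but differed by only -0.21 ± 0.06 between the pool labelled HDC-KO tumor and wild-type tumor. That tumor pool is therefore named by its label throughout, and every direction drawn from it rests on that label.

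Promoter windows of 300 bases, 250 before and 50 after an annotated transcript start, were found for 4 of the 6 genes in RefSeq (GRCm38.p6): Epx, Ccr3, Il5ra and Siglecf. The windows of Ccr3 and Siglecf are printed 5′ to 3′ because these are the tested genes among the 4. The Ccr3 window is chr9:124021721-124022020 on the + strand and the Siglecf window is chr7:43351091-43351390 on the + strand. Capitals mark GATAA, the core bound by GATA factors such as Gata1, which is required for eosinophils to form in mice.
Ccr3: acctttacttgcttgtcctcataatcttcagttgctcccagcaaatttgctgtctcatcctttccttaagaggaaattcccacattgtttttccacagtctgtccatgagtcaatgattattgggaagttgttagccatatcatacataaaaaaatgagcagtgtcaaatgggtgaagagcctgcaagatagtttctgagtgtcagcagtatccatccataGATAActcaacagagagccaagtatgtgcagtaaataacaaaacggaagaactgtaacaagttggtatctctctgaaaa
Siglecf: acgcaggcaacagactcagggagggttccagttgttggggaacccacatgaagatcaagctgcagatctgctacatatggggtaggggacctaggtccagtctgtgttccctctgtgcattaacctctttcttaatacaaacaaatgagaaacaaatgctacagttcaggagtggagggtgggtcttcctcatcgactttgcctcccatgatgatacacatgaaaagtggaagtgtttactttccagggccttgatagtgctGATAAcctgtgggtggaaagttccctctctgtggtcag
GATAA, searched on both strands, started at base -29 from the start site in Ccr3 and at base 13 in Siglecf, counting the start as 1. There was 1 match in the Il5ra window too, at base -73, and the Epx window held 0 matches. Of all 32851 such windows, 25.4% held a match, so a match is common. The C/EBP core TTNCNNAA was found 1 time in the Ccr3 window and 2 times in that of Siglecf, with no overlap with GATAA, and 40.7% of all windows held it.

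Prg2 encodes the precursor of major basic protein, the cationic core protein of the eosinophil granule. Its log2 value was 6.96 on both wild-type marrow arrays, 7.92 and 7.95 in HDC-KO marrow, 6.89 and 6.51 in wild-type tumor, and 2.34 and 2.75 in the pool labelled HDC-KO tumor. The last pool thus lay at background while the other 3 were well above it, and no 2 pools overlapped, though wild-type marrow and wild-type tumor, neighbours in the order of levels, did not differ beyond the technical spread. Fewer cells that make Prg2 and less of its RNA per cell cannot be told apart in such bulk samples.

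Epx encodes eosinophil peroxidase, the other granule protein, a heme enzyme related to myeloperoxidase. Its log2 value was 2.93 and 2.81 in wild-type marrow, 3.88 and 4.07 in HDC-KO marrow, 2.65 and 2.60 in wild-type tumor, and 2.04 and 2.14 in the pool labelled HDC-KO tumor. The order of the pools was that of Prg2, with HDC-KO marrow highest and the pool labelled HDC-KO tumor lowest, but all values lay under background and give no fold. Prg2 was therefore measured in 3 pools in which the other granule gene was not.

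Ccr3 encodes the eotaxin receptor. Its log2 value was 2.23 and 2.14 in wild-type marrow, 2.21 and 2.37 in HDC-KO marrow, 3.21 and 3.26 in wild-type tumor, and 7.40 and 7.60 in the pool labelled HDC-KO tumor. Ccr3 was above background in this last pool alone of the 4, where Prg2 was not. The marrow pools, lowest in the order, overlapped. It passed the filter on low values through that pool only, so that it had to differ there.

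Il5ra encodes the interleukin 5 binding chain of the interleukin 5 receptor. It ranged from 2.57 to 3.04 over the 8 arrays, and the pool means, 2.66 to 2.96, lay within a narrow band under background. The receptor that defines the response of eosinophils to interleukin 5 was thus not measurable in any pool.

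Siglecf encodes a sialic acid binding inhibitory receptor. Its log2 value was 8.29 and 8.24 in wild-type marrow, 7.20 and 7.30 in HDC-KO marrow, 7.08 and 6.88 in wild-type tumor, and 7.65 and 7.97 in the pool labelled HDC-KO tumor. It was above background on all 8 arrays, as no other of the 6 genes was, and its pool means ran from 8.27 in wild-type marrow through 7.81 in the pool labelled HDC-KO tumor and 7.25 in HDC-KO marrow to 6.98 in wild-type tumor. No 2 of these pools overlapped.

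Alox15 encodes 12/15-lipoxygenase, which oxidises arachidonic acid. Its log2 value was 3.35 and 3.14 in wild-type marrow, 3.27 and 3.19 in HDC-KO marrow, 4.13 and 4.66 in wild-type tumor, and 4.73 and 4.69 in the pool labelled HDC-KO tumor. Tumor arrays lay above marrow arrays without overlap, yet none reached log2 5.

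**Figure D1:**
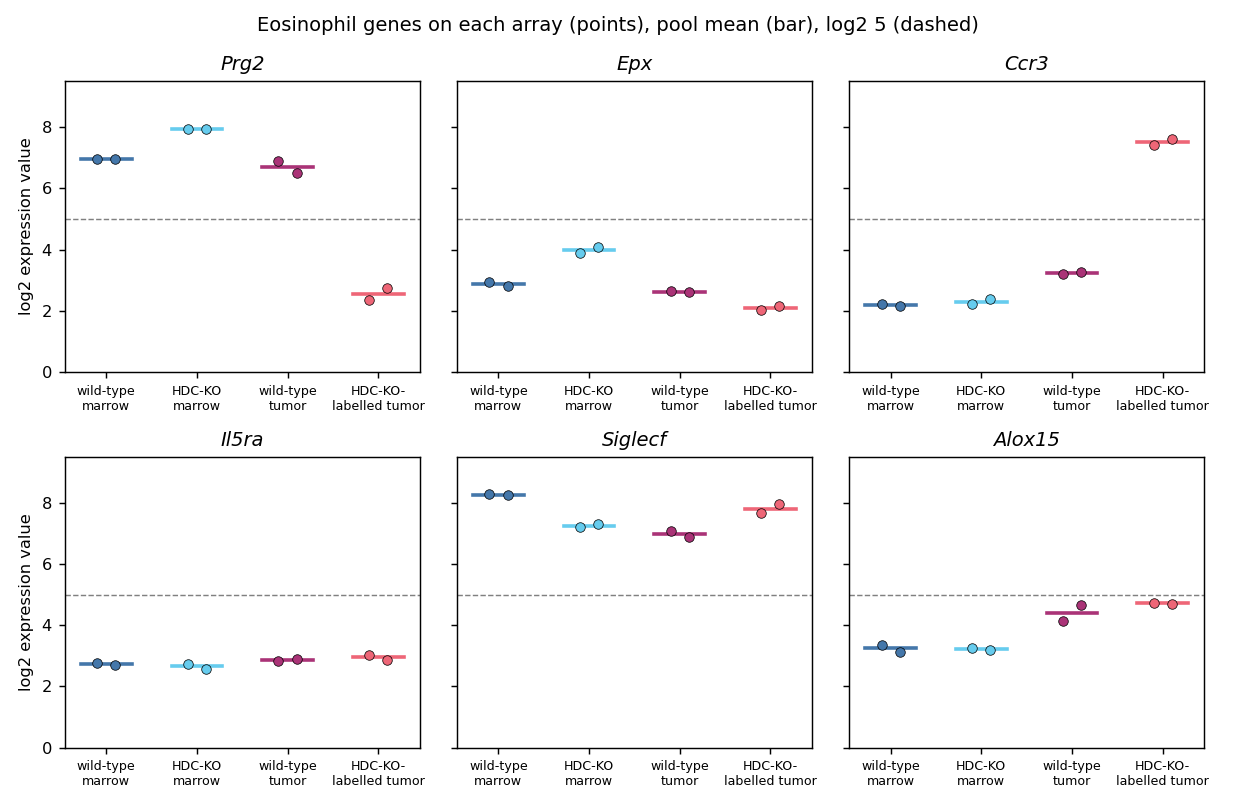
Log2 expression values (y axis) of the 6 eosinophil genes on each array (points) in the 4 pools (x axis), with the pool mean as a bar and log2 5 as a dashed line. Prg2 and Ccr3 are above the line in opposite tumor pools, Siglecf is above it on all 8 arrays, and Epx, Il5ra and Alox15 are under it on all of them.

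The comparison of HDC-KO with wild-type marrow asks what loss of HDC does to these marrow cells. Siglecf was 2.02-fold lower, having decreased by 1.01 ± 0.12 log2 units (SE from limma, with n = 2 technical arrays in each pool), at a Benjamini-Hochberg adjusted p of 0.003 in limma. It was the 1 of 3 tested eosinophil probe sets to pass both an adjusted p under 0.05 and a 2-fold difference, where 3.72% of the 13505 probe sets tested did. Prg2 differed the other way by 0.98 ± 0.17, 1.97-fold (limma, adjusted p = 0.011), and missed the 2-fold threshold. Ccr3 was under background in both pools, with a difference of 0.11 ± 0.09 (limma, adjusted p = 0.46).

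Siglecf and Prg2 thus lay on either side of the threshold by a narrow margin. The log2 difference of Siglecf was -0.99 without wild-type marrow array 1, -0.96 without HDC-KO marrow array 1 and -0.96 after quantile normalization, and was not called in those fits. By size of difference, Siglecf ranked 496 and Prg2 527 of 13505. Epx, untested, was 1.10 higher in HDC-KO marrow with both means under background, and Il5ra and Alox15 differed by -0.07 and -0.02 with overlapping arrays. The median log2 difference of all 6 was 0.04, against 0.00 over all tested probe sets.

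The comparison of the tumor pools sets the pool labelled HDC-KO against wild-type tumor. Hdc was not lost in it, at 13.03 against 13.24, so it is not read here as the effect of losing HDC. Prg2 fell at least 3.24-fold in the pool labelled HDC-KO, where the measured log2 difference was -4.15 ± 0.17 (limma, adjusted p = 4.7e-06), and Ccr3 rose at least 5.67-fold, where it was 4.27 ± 0.09 (limma, adjusted p = 8.1e-07). Of all probe sets 24.4% were called in this comparison. The call of Ccr3 follows from the filter that let it be tested, so no count of called eosinophil genes is read against that share.

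Siglecf was higher by 0.83 ± 0.12 in the pool labelled HDC-KO, 1.78-fold (limma, adjusted p = 0.0011), under the 2-fold threshold. Epx was lower by 0.53 in untested values under background (a log2 difference of -0.53), while Alox15 and Il5ra differed by 0.31 and 0.10. The 6 genes therefore did not share a direction between the tumor pools: 4 had a positive difference and 2 a negative one. Their median was 0.20, against -0.02 over all tested probe sets.

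**Figure D2:**
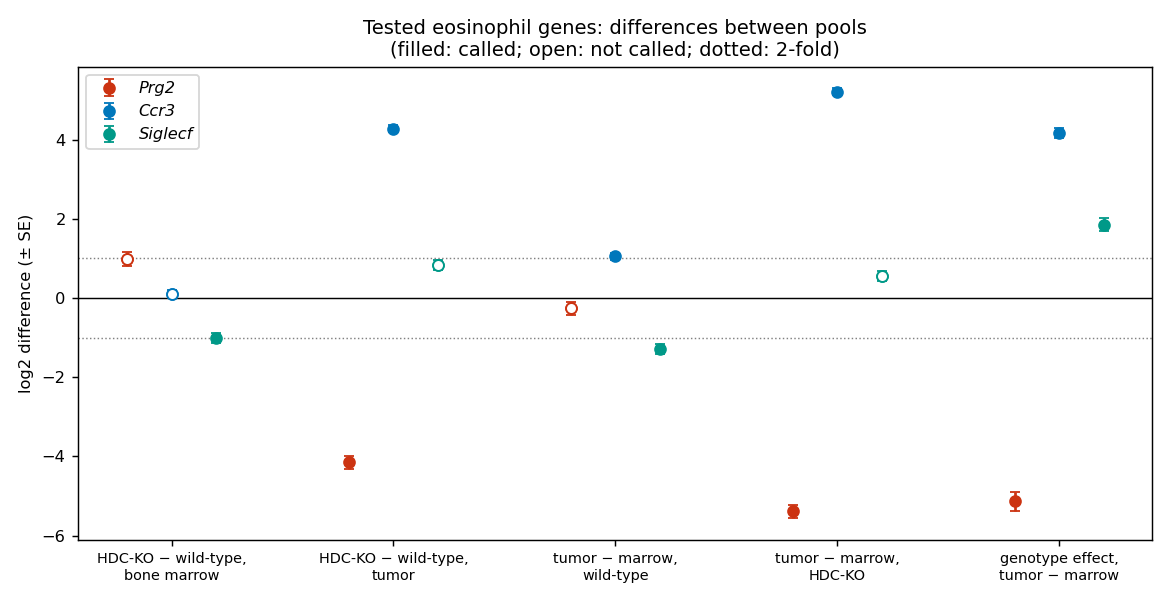
Log2 differences (y axis, ± SE from limma) of Prg2, Ccr3 and Siglecf in the 4 comparisons and in the difference between the genotype comparisons (x axis). Filled points were called, open points were not, and dotted lines mark 2-fold. Prg2 lies below -4 and Ccr3 above 4 in the tumor comparison.

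The tumor and marrow comparisons ask how cells labelled with the same genotype differ between the sites. In wild-type mice Siglecf fell 2.44-fold in tumor, a log2 difference of -1.29 ± 0.12 (limma, adjusted p = 0.00027). Ccr3 was called higher by 1.05 ± 0.09 (limma, adjusted p = 0.00019) with both means under background, and with values raised to log2 5 this call was lost at a difference of 0.00. Prg2 differed by -0.26 ± 0.17, which did not exceed the spread between technical arrays (limma, adjusted p = 0.23). The 2 calls among 3 tested stand beside 15.9% called over all probe sets.

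Between HDC-KO marrow and the pool labelled HDC-KO tumor, Prg2 fell at least 7.64-fold, where the measured log2 difference was -5.39 ± 0.17 (limma, adjusted p = 6.6e-07). Ccr3 rose at least 5.67-fold, by 5.21 ± 0.09 as measured (limma, adjusted p = 1e-07). Siglecf was 1.47-fold higher in that tumor pool, at 0.56 ± 0.12 (limma, adjusted p = 0.0054), and was not called. Of all probe sets 36.3% were called in this comparison. Alox15 was higher in tumor by 1.48 and Epx lower (a log2 difference of -1.89), both untested and under background. These comparisons reuse the pools of the genotype comparisons, so their values are not independent of them.

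The difference between the tumor pools minus that between the marrow pools, each HDC-KO label minus wild-type, was tested directly. On measured values it was -5.13 ± 0.24 for Prg2 (limma, adjusted p = 1.4e-05), 4.16 ± 0.13 for Ccr3 (limma, adjusted p = 5.3e-06) and 1.85 ± 0.17 for Siglecf (limma, adjusted p = 0.00021). Prg2 in 1 pool and Ccr3 in 3 lay under background, and with values raised to log2 5 their differences shrank to -2.67 and 2.50, still called. Of all probe sets 27.6% were called, and the call of Ccr3 again follows from the filter. Siglecf was lower in HDC-KO marrow and higher in the pool labelled HDC-KO tumor, and Prg2 ran the opposite way.

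Most other genes of eosinophil granules and surfaces that were measured lay under background. So do most probe sets, since 30.3% to 31.8% of all of them reached log2 5 on an array. Of 13 such genes 6 had a probe set of their own and 1 was tested, Ear3, an eosinophil-associated ribonuclease. Ear3 lay at 8.24, 8.81, 7.39 and 7.96 in wild-type marrow, HDC-KO marrow, wild-type tumor and the pool labelled HDC-KO tumor and was not called in any comparison by limma, at an unadjusted p under 0.05 but under 2-fold in each of the 4 (1 of 1 tested). It belongs to a family of near-identical genes that the probe set may read together. Prg3, a homolog of major basic protein, and Ptgdr2, Hrh4, Cysltr2 and Ltc4s, which serve prostaglandin, histamine and leukotriene signalling, lay under background in all 4 pools.

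Of 13 ligands that recruit or activate eosinophils, 10 lay under log2 5 in every pool, among them Il5 and the eotaxin Ccl11. Of all probe sets 30.3% to 31.8% reached log2 5 on an array, so no result about these ligands is drawn from that count. Ccl24, the other mouse eotaxin read by Ccr3, was at 2.06 and 2.10 in the marrow pools, 7.98 in wild-type tumor and 8.67 in the pool labelled HDC-KO tumor. It rose at least 7.90-fold from wild-type marrow to wild-type tumor (limma, adjusted p = 8.8e-06). From HDC-KO marrow to the pool labelled HDC-KO tumor it rose at least 12.7-fold (limma, adjusted p = 1.6e-06). Ccl8, a monocyte chemoattractant, rose at least 3.24-fold and at least 4.29-fold in the same comparisons (limma, adjusted p = 4.5e-05 and 1.1e-05). Ccl24 and Ccl8 passed the filter on low values through the tumor pools only, so these calls follow from that filter. They are not read against the 15.9% and 36.3% of all probe sets called in these comparisons. With 24.4% of all probe sets called, Ccl24 and Ccl8 were not called between the tumor pools. Ccl5, which also binds Ccr3, was the 1 of the 3 tested that rose between them, from 5.74 to 10.52 (limma, adjusted p = 9.4e-06), so that a ligand and Ccr3 were both higher in the pool labelled HDC-KO tumor. Between the marrow pools Ccl5 was called lower with both means under background, at a difference of -1.36, and the other 2 were not called. The share called there over all probe sets was 3.72%.

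The signalling chains shared by interleukin 5, interleukin 3 and granulocyte-macrophage colony-stimulating factor were measured in contrast to Il5ra. Csf2rb, the common beta chain, lay at 12.58, 12.44, 13.27 and 13.23 in the pools in the order above. Csf2rb2, a mouse beta chain for interleukin 3, rose 2.94-fold from marrow to tumor in wild-type (limma, adjusted p = 1.1e-05). From HDC-KO marrow to the pool labelled HDC-KO tumor it rose 4.75-fold (limma, adjusted p = 6.8e-07). Csf2rb and Csf2rb2 are near-identical in sequence, and their probe sets may share signal. Of 8 such genes tested, limma called 0 between the marrow pools (5 had an unadjusted p under 0.05) and 1 between the tumor pools. That was Stat5a, a signal transducer, at least 1.34-fold higher in the pool labelled HDC-KO. The shares called over all probe sets were 3.72% and 24.4% in these comparisons.

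The transcription factors that set the eosinophil lineage split by detection. Gata1, Gata2 and Zfpm1, a partner of GATA factors, lay under log2 5 in all 4 pools, with Gata1 at 2.75 to 2.95. On each array most of all probe sets lay under log2 5 too. The 8 factors tested are shared with other myeloid cells. Of these, 1 rose and 1 fell between the marrow pools, where 3.72% of all probe sets were called. Cebpa, a factor of granulocyte commitment, was 2.31-fold higher in HDC-KO marrow and Cebpb 2.17-fold lower (limma, adjusted p = 0.00065 and 8.5e-05). Between the tumor pools 2 of 8 rose, near the 24.4% called over all probe sets. Cebpa rose 3.48-fold in the pool labelled HDC-KO tumor, as it had in HDC-KO marrow. Irf8, a factor of monocytes and dendritic cells, rose 3.68-fold (limma, adjusted p = 1.5e-05 for Cebpa and 2.8e-05 for Irf8). Trib1, a pseudokinase needed for eosinophil identity in mice, rose 2.64-fold from HDC-KO marrow to the pool labelled HDC-KO tumor (limma, adjusted p = 9.3e-05). It was 1 of 3 of the 8 that rose there, near the 36.3% called over all probe sets. Its means were 6.66 and 8.06 in those pools. In wild-type they were 7.57 in marrow and 8.55 in tumor, also higher in tumor but not called.

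Markers of other cells were set beside these genes. Of 12 basophil and mast cell markers 11 had a probe set and 7 were tested, and their mean log2 level per array was 4.61 to 4.62 in wild-type marrow, 3.63 to 3.65 in HDC-KO marrow, 4.08 in wild-type tumor and 3.03 to 3.13 in the pool labelled HDC-KO tumor. Between the marrow pools 4 of the 7, Mcpt8, Fcer1a, Ms4a2 and Cpa3, fell and 0 rose, while Prg2 was higher in HDC-KO marrow. In that comparison 3.72% of all probe sets were called. Fcer1a, Ms4a2 and Cpa3 passed the filter on low values through wild-type marrow only, so the count is not read against that share. Between the tumor pools, where 24.4% of all probe sets were called, 2 fell, as Prg2 did, and Kit, a growth factor receptor of mast cells, was called higher with both means under background, at 3.86 and 4.97. Those that fell were Mcpt1 and Mcpt2, proteases of mucosal mast cells. They lay at 8.35 and 8.87 in wild-type tumor and 2.59 and 2.57 in the pool labelled HDC-KO. That was at least 10.2-fold and 14.7-fold lower (limma, adjusted p = 8.1e-07 and 4.6e-07). Mcpt1 and Mcpt2 passed the filter on low values through wild-type tumor only. Their calls follow from that filter, so the count of 2 is not read against the 24.4%. In both marrow pools they lay under background, where Prg2 was measured.

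Macrophage markers had a mean log2 level of 5.11 to 5.24 in wild-type marrow, 5.47 to 5.51 in HDC-KO marrow, 8.34 to 8.40 in wild-type tumor and 9.53 to 9.65 in the pool labelled HDC-KO tumor. Of 8 tested, 6 rose between the tumor pools, where 24.4% of all probe sets were called. Marco and Siglec1, markers of tissue macrophages, lay under background in every pool. Epithelial markers had means of 3.48 to 3.53, 3.16 to 3.30, 8.38 to 8.40 and 10.84 to 10.89, and 7 of 8 rose between the tumor pools. B and T cell markers had means of 4.02 to 4.19, 5.20 to 5.34, 5.24 to 5.27 and 6.49 to 6.61, with 3 of 4 tested higher and 1 lower between the tumor pools. The 1 lower was Cd3d, while Cd3g was higher, having passed the filter through the pool labelled HDC-KO tumor only. Between the marrow pools Cd3d rose from 7.63 to 12.48 and Cd79b from 5.58 to 6.94. Cd3e, Cd3g, Cd79a and Cd8a lay under background in both marrow pools. The part of these cells in the levels of Ccr3, Siglecf and Prg2 was not tested.

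Tuft cells, sensory cells of the gut lining that can carry Siglecf, were checked with 6 markers. Dclk1, Trpm5, Pou2f3, Avil and Sh2d6 lay under background in all 4 pools, and Alox5ap, which granulocytes also make, lay at 13.85 to 14.06. The 8 neutrophil markers had means of 13.99 in wild-type marrow, 14.04 to 14.06 in HDC-KO marrow, 13.94 to 13.98 in wild-type tumor and 13.79 to 13.82 in the pool labelled HDC-KO tumor. In limma 0 of the 8 were called between the marrow pools or between the tumor pools (1 and 5 had an unadjusted p under 0.05). The shares called over all probe sets were 3.72% and 24.4%. S100a8 and S100a9 lay at 15.12 to 15.18 in the 4 pools, and whether a 2-fold difference could be read at such levels was not tested. The 0 calls therefore do not show equal neutrophil content. The differences of Prg2, Ccr3 and Siglecf between the same pools are given above. Ccr3 did not differ between the marrow pools beyond the technical spread.

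**Figure D3:**
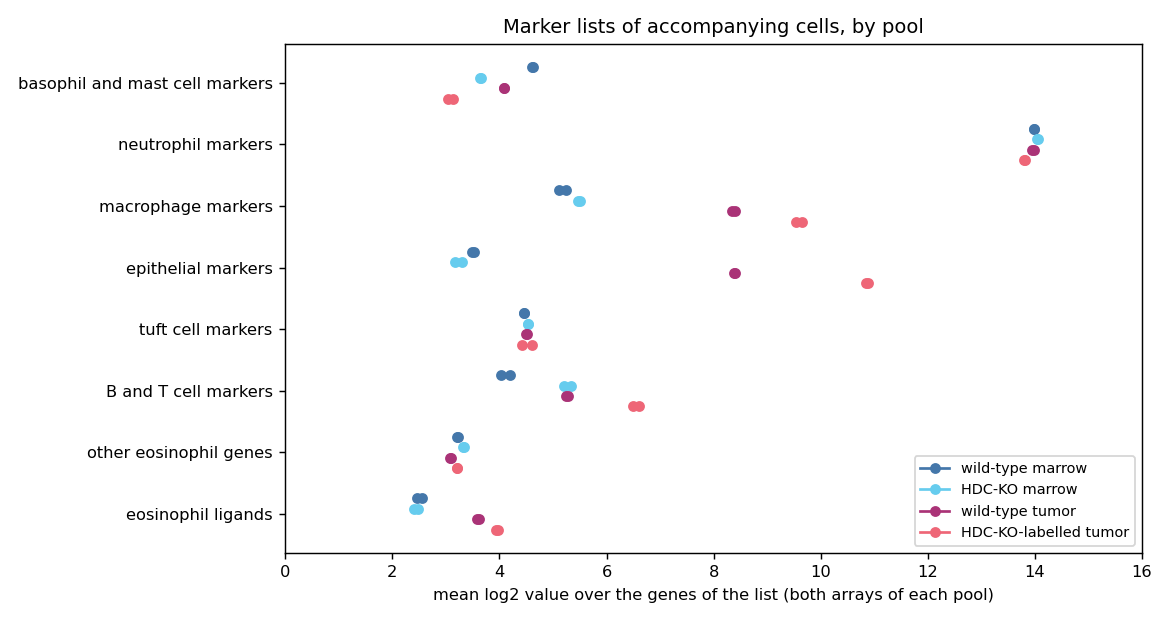
Mean log2 value over the genes of each list (x axis) for both arrays of each pool (points joined by a line, coloured by pool), by list (y axis). Macrophage, epithelial and lymphocyte lists are highest in the pool labelled HDC-KO tumor, and the basophil and mast cell list is lowest there, at 3.03 to 3.13.

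Genes with the nearest pattern were taken by the root mean square distance over the 8 arrays, with values raised to log2 5 and centred on their own mean. For Ccr3 they were Sema3c, a secreted guidance protein, at 0.0333, Bnip5 at 0.0402 and Cr2, the complement receptor of B cells, at 0.0408, each above background in the pool labelled HDC-KO tumor alone. For Prg2 they were Nt5e, the ectoenzyme CD73 that makes adenosine, at 0.167, Arap3 at 0.200 and Tnfsf13b, the B cell survival factor BAFF, at 0.201. Unlike Prg2 these 3 stayed above background in every pool, with Nt5e at 9.90, 10.86, 9.45 and 7.63. For Siglecf they were Xpot at 0.153, Akap7 at 0.171 and Tmem229b at 0.178. These distances rest on 4 pools, and many genes that differ in 1 pool look alike by them.

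**Figure D4:**
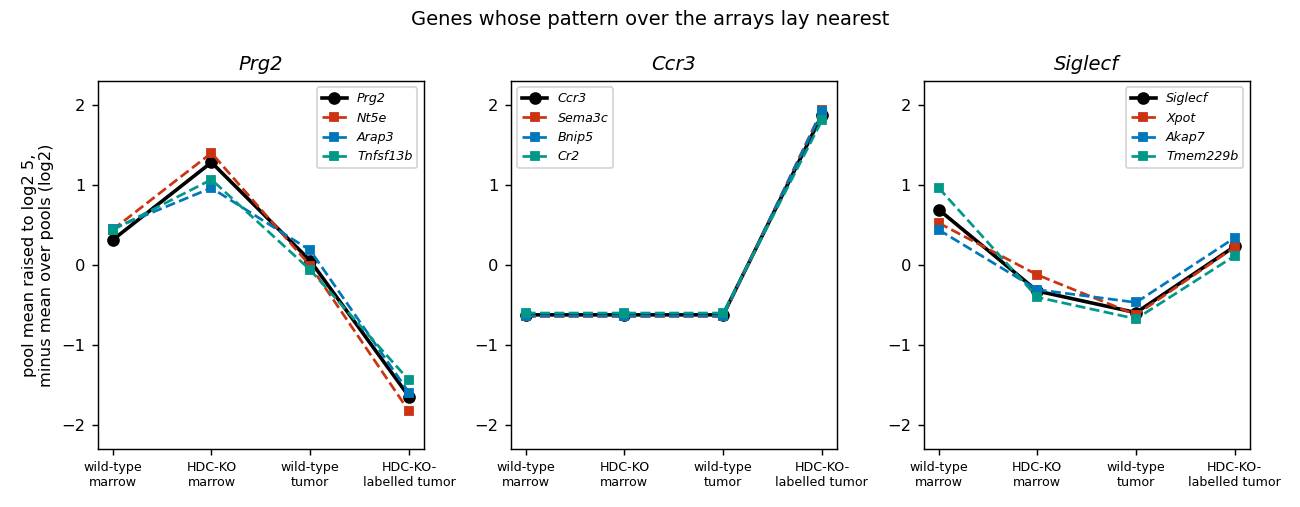
Pool means raised to log2 5 and centred on their mean over the pools (y axis, log2) for Prg2, Ccr3 and Siglecf (black) and the 3 genes nearest to each (coloured), in the 4 pools (x axis). The Ccr3 lines nearly coincide, with distances of 0.0333 to 0.0408, and those of Prg2 and Siglecf lie farther apart, at 0.153 to 0.201. Ccr3 and its nearest genes lie at the raised value in every pool but the one labelled HDC-KO tumor. Only their level in that pool can differ, which makes small distances easier to reach.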

How the data were processed

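The deposited table holds log2 values for 45101 probe sets, which the authors made with GCRMA, per the submitters' processing notes. GCRMA subtracts background, normalizes the arrays to each other and gives each probe set 1 value. That these are log2 values was judged from their range, and no source used here gives the version of GCRMA. Arrays have no read depth, so the number of arrays limits precision.

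Arrays were grouped by title into 4 pools of 2 technical arrays. Of the probe sets, 34958 are annotated to 1 gene in the platform annotation, 932 to several and 9211 to none. The 13505 probe sets of 1 gene that reached log2 5 on at least 2 arrays were fitted on all 8 arrays with limma 3.58.1 in R 4.3.3 (lmFit, eBayes; 4 residual and 2.23 prior degrees of freedom). A probe set was called at a Benjamini-Hochberg adjusted p under 0.05 over all tested together with a 2-fold difference (1 on the log2 scale). A mean under log2 5 was raised to 5 for a fold, given as a bound. The fit was tested on simulated data. Summaries used Python 3.11.15. RefSeq gave the promoters.

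For the other gene lists the probe set with the highest mean stood for a gene, and up to 3 called genes per list and comparison could be named; not all are. Genes without a probe set of their own were not analysed here. The members and lists were chosen with earlier results of these data known, and Itgam was chosen after its values were seen. Tried besides were a filter at log2 7 or none, raising values to log2 5, quantile normalization, 1 probe set per gene, the compared groups only, a trended and robust variance, a replicate block, averaged arrays and each array left out.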

Additional observations from a re-analysis of the deposited data

Results flagged for a closer look

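The difference between the pools labelled HDC-KO and wild-type was not the same in tumor as in marrow for each of the 3 tested eosinophil genes, by a direct test (limma with Benjamini-Hochberg adjustment). The log2 difference of Hdc was -0.21 in tumor and -3.35 in marrow, so the label of that tumor pool may not match its genotype. For Prg2 the difference in tumor minus that in marrow was -5.13 on the log2 scale (adjusted p = 1.4e-05, or 3.2e-09 to 0.00018 over its alternatives), and -2.67 with values raised to log2 5, since 1 pool lay under background. For Ccr3 it was 4.16 (adjusted p = 5.3e-06, or 2.2e-08 to 8.2e-05), and 2.50 with values raised, since 3 pools lay under it. For Siglecf it was 1.85 (adjusted p = 0.00021, or 1.9e-06 to 0.0015). Over all probe sets 27.6% were called in the same test, and Hdc itself had a difference of 3.14. The call of Ccr3 follows from the filter that let it be tested, so the 3 genes are not counted against that share.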

How the results depend on the processing

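The calls of Prg2 and Ccr3 between the tumor pools and between HDC-KO marrow and the pool labelled HDC-KO tumor, and those of all 3 tested eosinophil genes in the difference of effects, held in every alternative that gave a test. Without arrays in turn, where a lone array is assumed to vary like the others, the tumor difference of Prg2 was -4.36 to -3.94 and that of Ccr3 4.17 to 4.37. With values raised to log2 5 they were -1.70 and 2.50. The calls of Ccr3 follow from the filter in every fit that applied one, so their holding there is no separate support. The number of eosinophil probe sets called between the marrow pools, 1, was 0 to 1 with an array left out, 0 after quantile normalization and 2 with no filter, where Epx was called. With no filter 4 were called between HDC-KO marrow and the pool labelled HDC-KO tumor, where Epx and Alox15 were added, and with values raised to log2 5 the count in wild-type tumor against marrow was 1. With 1 probe set per gene, over 8174 genes in place of 13505 probe sets, the calls over the whole table numbered 312, 2122, 1338, 2986 and 2330 in the order of the comparisons, against 502, 3300, 2147, 4898 and 3728. Same-numbered arrays did not deviate together (correlations of -0.016 to 0.063), and with the replicate block the counts were 500, 3300, 2146, 4898 and 3722, with no change in the calls of the eosinophil genes. Signal near background limits Epx, Il5ra and Alox15, and 2 technical arrays per pool leave the spread between mice unmeasured.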

Other observations

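Alox5 and Lta4h, enzymes of leukotriene synthesis, were lower in the pool labelled HDC-KO tumor than in wild-type tumor, while Alox15 lay under background in both. They were 2 of 4 tested among 10 lipoxygenase pathway genes, where 24.4% of all probe sets were called, and no claim about the pathway is drawn from this count. Alox5, the 5-lipoxygenase that starts leukotriene synthesis, was at 11.69 in wild-type tumor and 10.27 in that pool, 2.67-fold lower (limma, adjusted p = 8.8e-06). Lta4h, which makes leukotriene B4 in neutrophils, was at 12.87 and 10.82, 4.13-fold lower (limma, adjusted p = 1.3e-06). Alox5ap and Gpx4 were not called. The marrow pools showed 0 calls among the 4 by limma, with 2 at an unadjusted p under 0.05. There 3.72% of all probe sets were called. The other 6 genes, lipoxygenases of skin and platelets and Ltc4s among them, lay under log2 5 in all 4 pools.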
